A study of Mus musculus with 10 samples.

Results

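Complement is a cascade of secreted proteins with its receptors and inhibitors, and 9 of its genes are described here in the mouse hippocampus: C1qa, C1qb, C1qc, C2, C3, C4b, Serping1, C3ar1 and C5ar1. They were taken by name, as components and regulators of complement, from a table of 28871 genes. All 9 are in the table and all 9 passed the filter on low counts, among 19093 genes that did. The tissue is the whole hippocampus of male wild type C57BL/6J mice, 2 months old. The 5 Visudyne samples (numbers 3, 6, 9, 12 and 15) come from mice given Visudyne, an injectable form of the photosensitizer verteporfin, into the cisterna magna, followed by red light of 689 nm through the skull, which serves to ablate the lymphatic vessels of the meninges. The 5 vehicle samples (numbers 1, 4, 7, 10 and 13) come from mice given vehicle and the same light, so that both groups share the injection and the illumination. Both groups went through the procedure again 2 weeks later and were sampled after a further 2 weeks. The labels do not say whether a sample is a single animal, so the p-values measure the spread between these samples, which may be technical in part.

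In the classical route C1q, built of the chains encoded by C1qa, C1qb and C1qc, binds a target and switches on the proteases C1r and C1s. These cleave C4 and C2, whose fragments form the enzyme that cleaves C3, and fragments of C3 and C5 then label targets for uptake or act on the receptors C3ar1 and C5ar1. Serping1 encodes the C1 inhibitor, which blocks C1r and C1s. In the brain microglia are the main known source of C1q, and C1q and C3 are known for marking synapses that microglia remove.

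Sequencing depth ranged from 53720011 to 68895223 estimated counts in Visudyne samples and from 51165271 to 66147697 in vehicle samples. Values are given as CPM, which are counts scaled to a common library size (with TMM factors), as mean ± SD (n = 5 per group). Differences are log2 fold changes, Visudyne minus vehicle, with the standard error (SE). Markers of hippocampal neurons, among them Prox1, Neurod6, Slc17a7 and Camk2a, summed to 1992 to 2152 CPM in Visudyne and 2025 to 2195 CPM in vehicle samples. The tissue is taken from its label and was not tested against other brain regions. A change in the number of cells of a type and a change in RNA per cell cannot be told apart in RNA of whole tissue.

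None of the 9 complement genes passed the test between Visudyne and vehicle hippocampi. At an adjusted p under 0.05 in the quasi-likelihood test of edgeR, 0 were higher and 0 were lower, and each had an adjusted p of 0.9999. Of all genes tested, 0.021% were called higher and 0% lower. At an unadjusted p under 0.05 there was 1 of the 9 above (C4b) and 0 below, where the shares of all genes were 1.14% and 0.56%. DESeq2 and limma voom each called 0 of the 9 in either direction, beside 0.0564% and 0.021% of all genes called higher and 0.00752% and 0% called lower. The log2 fold change was positive for 8 of the 9 and negative for C5ar1, with a median of 0.18, while 51.1% of all genes were positive, with a median of 0.0022. In 0 of the 9 did all 5 Visudyne samples lie above all 5 vehicle samples, and in 0 did they lie below, against 0.319% and 0.115% of all genes.

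**Figure D1:**
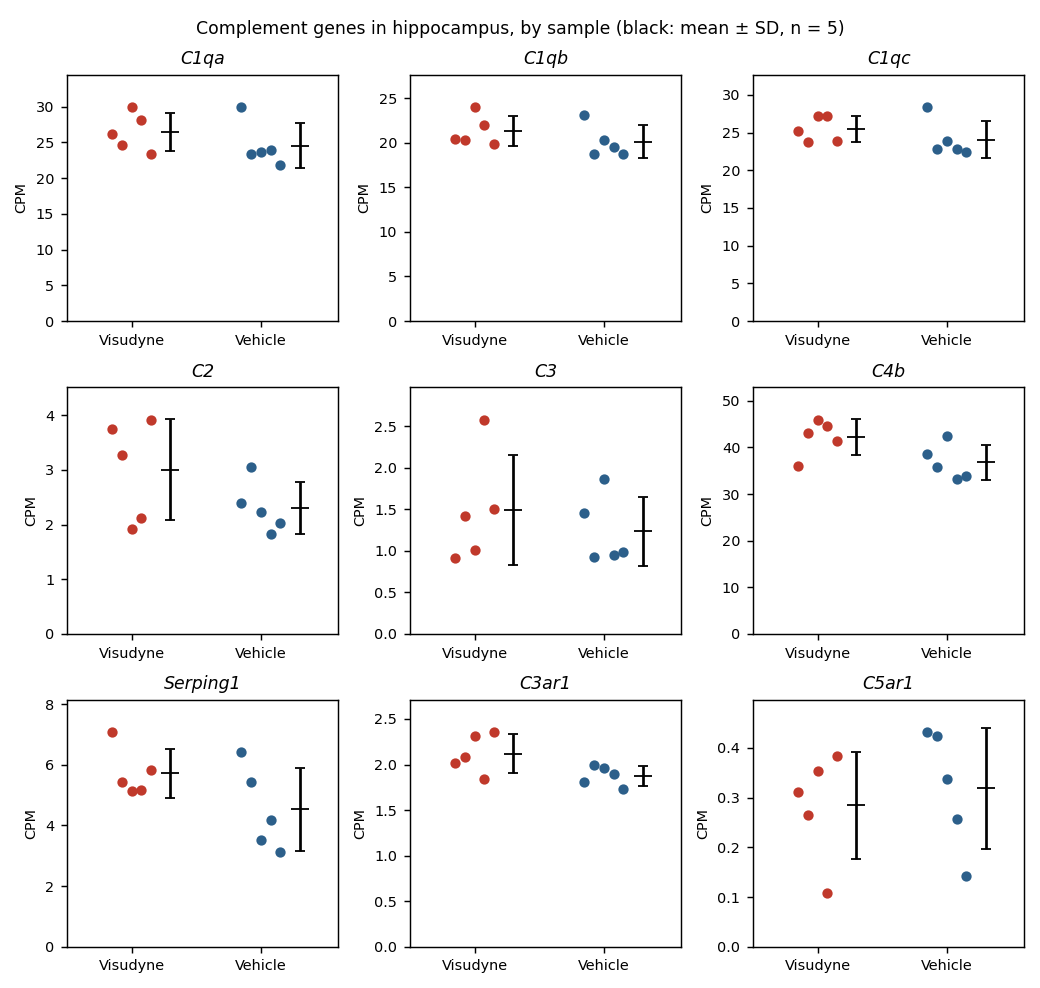
CPM of the 9 complement genes in each of the 5 Visudyne (left, red) and 5 vehicle samples (right, blue), with mean ± SD in black and every axis starting at 0. The groups overlap in every gene, and the vehicle sample at 29.9 CPM of C1qa and 28.4 CPM of C1qc is vehicle 1.

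The C1q chains lie side by side on mouse chromosome 4 (build mm10, minus strand): C1qb (ENSMUSG00000036905) at positions 136880129 to 136886187, C1qc (ENSMUSG00000036896) at 136889804 to 136893065 and C1qa (ENSMUSG00000036887) at 136895917 to 136898803. As a description, the 250 bases before the start that RefSeq gives to C1qb and to C1qc on GRCm38.p6 are shown. Their part in the RNA levels was not tested. These starts differ from the gene ends above, which are from GENCODE: that of C1qb lies just upstream of the GENCODE gene and that of C1qc inside it, so that part of the C1qc window lies within the GENCODE gene. Capitals mark GAGGAA, the core of sites bound by PU.1, a transcription factor of microglia and other myeloid cells, or its reverse complement. The promoter table matched 5 of the 9 genes (C1qb, C1qc, C3, C3ar1 and C5ar1).
C1qb, chr4:136886201-136886450, minus strand: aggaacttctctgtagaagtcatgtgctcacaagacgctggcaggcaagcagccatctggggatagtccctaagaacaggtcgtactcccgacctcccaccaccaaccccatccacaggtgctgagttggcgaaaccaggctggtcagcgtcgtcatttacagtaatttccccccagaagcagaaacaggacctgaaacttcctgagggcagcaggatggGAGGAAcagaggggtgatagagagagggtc
C1qc, chr4:136892915-136893164, minus strand: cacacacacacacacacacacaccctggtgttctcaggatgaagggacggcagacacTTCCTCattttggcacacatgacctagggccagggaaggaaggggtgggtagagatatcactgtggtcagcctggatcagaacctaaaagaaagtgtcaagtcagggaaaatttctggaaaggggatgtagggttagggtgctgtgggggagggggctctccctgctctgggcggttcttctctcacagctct

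Counted from the RefSeq starts, the GAGGAA match starts 30 bases before C1qb and, on the opposite strand, 193 bases before C1qc. It occurs on either strand in 22.8% of 15857 promoter stretches of this length, so a match is common. None of the windows of C3, C3ar1 and C5ar1 holds it. The pattern searched for NF-kB matched at 2 overlapping places in C1qb, at 1 in C1qc and at 3 in C3, and occurs in 20.8% of promoters. The C/EBP pattern TTGCNNAA matched in C3 alone among the 5, 45 bases before its start, and occurs in 8.37% of promoters. TTCNNNGAA (STAT, 6.42% of promoters) and the pattern of the interferon response (2.71%) matched in none of the 5. Each pattern was searched on both strands, and the GAGGAA matches overlap no other match.

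C1qa, C1qc and C1qb were the most abundant of the 9 genes for their length. C1qa measured 26.1, 24.6, 30.0, 28.1 and 23.3 CPM in Visudyne 3, 6, 9, 12 and 15, and 29.9, 23.4, 23.7, 24.0 and 21.8 CPM in vehicle 1, 4, 7, 10 and 13. Vehicle 1 stood above the other vehicle samples, at the level of Visudyne 9, and the groups overlapped. The means were 26.4 ± 2.68 CPM in Visudyne and 24.5 ± 3.13 CPM in vehicle samples (log2 fold change 0.11, SE 0.091, edgeR adjusted p = 0.9999).

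C1qb measured 20.4, 20.3, 24.1, 22 and 19.9 CPM in the Visudyne samples, in the same order, and 23.2, 18.7, 20.4, 19.5 and 18.8 CPM in the vehicle samples. Visudyne 9 and vehicle 1 were again the highest of their groups. The means were 21.3 ± 1.73 CPM in Visudyne and 20.1 ± 1.84 CPM in vehicle samples (log2 fold change 0.084, SE 0.073). C1qc measured 25.2, 23.7, 27.2, 27.2 and 23.9 CPM in Visudyne and 28.4, 22.8, 23.8, 22.8 and 22.5 CPM in vehicle samples. Its highest sample was vehicle 1, above all Visudyne samples, while the other vehicle samples were below all Visudyne samples but Visudyne 6. The means were 25.4 ± 1.70 CPM in Visudyne and 24.1 ± 2.50 CPM in vehicle samples (log2 fold change 0.079, SE 0.073). Without vehicle 1, the log2 fold changes were 0.19 for C1qa, 0.14 for C1qb and 0.15 for C1qc, and without Visudyne 9 they were 0.056, 0.037 and 0.054. None passed in either case.

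The chains of C1q enter the protein in equal number, and their RNAs kept a steady proportion. As log2 ratios of counts, C1qb over C1qa was -0.31 ± 0.054 in Visudyne and -0.28 ± 0.067 in vehicle samples, a difference of -0.023 (exact two-sided permutation p = 0.579, n = 5 each). C1qc over C1qa was -0.051 ± 0.064 in Visudyne and -0.026 ± 0.052 in vehicle samples, a difference of -0.026 (exact two-sided permutation p = 0.571, n = 5 each). With 1 sample left out, the difference of C1qc over C1qa ranged from -0.048 without Visudyne 15 to -0.0030 without Visudyne 9, and that of C1qb over C1qa from -0.044 without vehicle 1 to -0.0059 without vehicle 13. With the C4a share given below, 3 such tests were made, and each adjusted p was 0.579. Over 10 samples the log2 CPM of the chains correlated with r = 0.95 (C1qa with C1qb), 0.96 (C1qa with C1qc) and 0.94 (C1qb with C1qc), and by nearly as much as deviations from the group means (0.94, 0.95 and 0.93). These values share the libraries and their scaling.

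Per kilobase of transcript, which allows levels of different genes to be compared, C1qa stood at 25.4 ± 2.58 CPM in Visudyne and 23.6 ± 3.01 CPM in vehicle samples. C1qc followed at 21.1 ± 1.41 CPM per kilobase in Visudyne and 20 ± 2.08 in vehicle samples, and C1qb at 19.6 ± 1.59 in Visudyne and 18.5 ± 1.70 in vehicle samples. The ranges of these neighbours overlapped over samples, although within a sample C1qa exceeded C1qc and C1qc exceeded C1qb in 10 of 10. C4b came next at 7.84 ± 0.721 CPM per kilobase in Visudyne and 6.84 ± 0.707 in vehicle samples, below every C1q value. Serping1 had 3.23 ± 0.454 in Visudyne and 2.56 ± 0.773 in vehicle samples, and C2 1.14 ± 0.349 in Visudyne and 0.872 ± 0.178 in vehicle samples, with no overlap between these genes. C3ar1 (0.493 ± 0.0495 in Visudyne and 0.436 ± 0.0257 in vehicle samples) and C3 (0.289 ± 0.129 in Visudyne and 0.241 ± 0.0808 in vehicle samples) overlapped each other, with C3ar1 the higher in 9 of 10 samples. C5ar1 was lowest at 0.112 ± 0.0426 CPM per kilobase in Visudyne and 0.125 ± 0.0479 in vehicle samples. C3, on which the routes of the cascade meet, thus had a lower RNA level for its length than the C1q chains and C4b in every sample.

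**Figure D2:**
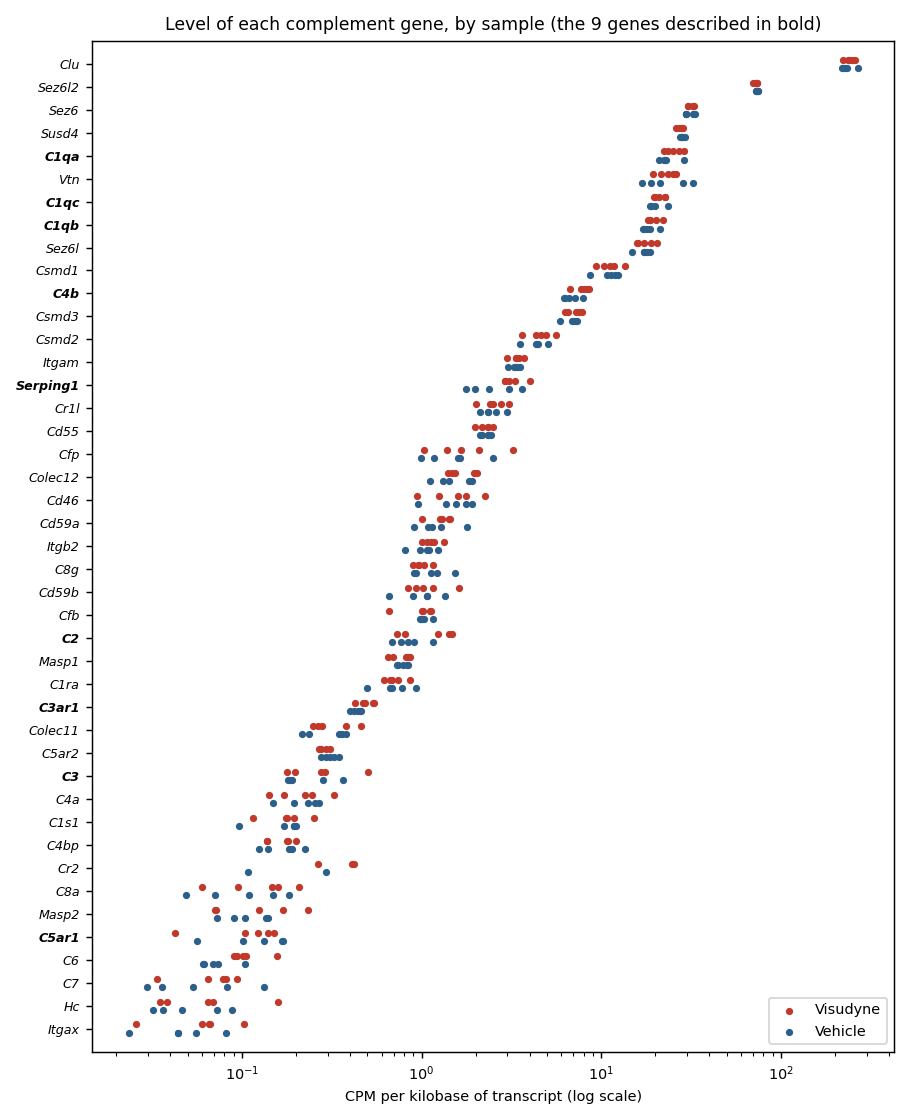
CPM per kilobase of transcript (log axis) for 43 of the 44 complement genes tested, with 1 point per sample, Visudyne in red above vehicle in blue, ordered by mean level. The C1q chains lie near 20 to 25 CPM per kilobase and C5ar1 near 0.1, and samples with 0 counts, which only Cr2 has among these genes, are not drawn.

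C4b, the mouse gene of complement C4 (ENSMUSG00000073418, chromosome 17, positions 34728380 to 34743882, minus strand), had the smallest unadjusted p of the 9 genes. It measured 36.0, 43.1, 46.0, 44.6 and 41.3 CPM in Visudyne 3, 6, 9, 12 and 15, and 38.6, 35.8, 42.5, 33.2 and 33.8 CPM in vehicle 1, 4, 7, 10 and 13. The Visudyne samples 6, 9 and 12 exceeded all vehicle samples, while Visudyne 3 was at the level of vehicle 4 and vehicle 7 lay among the Visudyne samples. The means were 42.2 ± 3.88 CPM in Visudyne and 36.8 ± 3.80 CPM in vehicle samples (log2 fold change 0.20, SE 0.080, unadjusted p = 0.0296, edgeR adjusted p = 0.9999). The fold change was 0.25 without vehicle 7 and 0.16 without Visudyne 9, the ends of its range when 1 sample was left out.

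Mouse C4b has a near-identical neighbour, C4a (chromosome 17, 34809092 to 34823464, minus strand), whose protein is known as the sex-limited protein and lacks the usual activity of C4. The annotation used here lists C4a as a processed transcript and not as protein-coding. The reference transcripts of the pair are identical at 96.1% of 5367 aligned bases, and 48.8% of the 31-base words of the C4b transcript also occur in C4a, so that the estimates for these genes share reads. The aligned stretch of 60 bases within an exon (exon 21 of both) that differs most is shown, because it marks where reads tell the genes apart. Capitals mark the 13 bases that differ.
C4b, chr17:34735430-34735489, mm10, minus strand: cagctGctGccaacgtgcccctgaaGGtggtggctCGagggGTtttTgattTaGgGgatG
C4a, chr17:34816086-34816145, mm10, minus strand: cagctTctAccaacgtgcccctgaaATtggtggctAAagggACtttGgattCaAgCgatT

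C4a took 2.48, 2.74, 2.78, 1.67 and 4.05% of the summed C4a and C4b counts in the Visudyne samples, and 2.03, 3.39, 3.30, 3.05 and 3.92% in the vehicle samples. The groups overlapped, with means of 2.74 ± 0.856% in Visudyne and 3.14 ± 0.695% in vehicle samples (exact two-sided permutation p = 0.452, n = 5 each). The difference was -0.125 percentage points without Visudyne 12 and -0.720 without Visudyne 15, the ends of its range with 1 sample left out. With both genes summed, the log2 fold change was 0.19 in place of 0.20.

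C2, the protease that joins with C4 in the C3-cleaving enzyme (ENSMUSG00000024371, chromosome 17, 34862604 to 34898265, minus strand), had the highest fold change of the 9. It measured 3.75, 3.28, 1.92, 2.13 and 3.92 CPM in the Visudyne samples and 2.40, 3.05, 2.22, 1.82 and 2.03 CPM in the vehicle samples. Visudyne 3, 6 and 15 lay above all vehicle samples, and Visudyne 9 and 12 lay within the vehicle range. The means were 3.00 ± 0.923 CPM in Visudyne and 2.30 ± 0.471 CPM in vehicle samples (log2 fold change 0.38, SE 0.22, edgeR adjusted p = 0.9999). The annotation also holds Gm20547, which overlaps C2 and Cfb on the same strand and shares 59.7% of the 31-base words of C2. It had 3 to 57 counts per sample, where C2 had 92 to 235. With both summed, the log2 fold change of C2 was 0.34. The rank of C2 changed between alternatives. Serping1 was the higher with limma voom (0.37 against 0.35) and without vehicle 1 (0.50 against 0.40), among others.

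C3 (ENSMUSG00000024164, chromosome 17, 57203970 to 57228136, minus strand), on which all routes of complement meet, rested on 48 to 143 counts per sample. It measured 0.916, 1.42, 1.01, 2.58 and 1.5 CPM in Visudyne and 1.45, 0.927, 1.87, 0.949 and 0.982 CPM in vehicle samples. Visudyne 12 and vehicle 7 were the highest of their groups, and the others of both groups spread over the same range. The means were 1.49 ± 0.661 CPM in Visudyne and 1.24 ± 0.415 CPM in vehicle samples (log2 fold change 0.26, SE 0.30). The fold change was -0.017 without Visudyne 12 and 0.46 without vehicle 7.

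Serping1, the C1 inhibitor (ENSMUSG00000023224, chromosome 2, 84765387 to 84775444, minus strand), measured 7.07, 5.43, 5.13, 5.16 and 5.82 CPM in Visudyne 3, 6, 9, 12 and 15, and 6.41, 5.43, 3.52, 4.17 and 3.12 CPM in vehicle 1, 4, 7, 10 and 13. Visudyne 3 alone exceeded all vehicle samples, vehicle 1 and 4 lay within the Visudyne range, and vehicle 7, 10 and 13 lay below every Visudyne sample. The means were 5.72 ± 0.802 CPM in Visudyne and 4.53 ± 1.37 CPM in vehicle samples (log2 fold change 0.34, SE 0.18, edgeR adjusted p = 0.9999). Its coefficient of variation was 14% among Visudyne and 30.2% among vehicle samples.

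Of the receptors, C3ar1 (ENSMUSG00000040552, chromosome 6, 122847138 to 122856161, minus strand), the receptor of the C3a fragment, measured 2.02, 2.08, 2.31, 1.84 and 2.35 CPM in Visudyne and 1.81, 1.99, 1.97, 1.90 and 1.73 CPM in vehicle samples. The Visudyne samples other than Visudyne 12 lay above all vehicle samples, by little in Visudyne 3. The means were 2.12 ± 0.213 CPM in Visudyne and 1.88 ± 0.111 CPM in vehicle samples (log2 fold change 0.18, SE 0.11). C5ar1 (ENSMUSG00000049130, chromosome 7, 16246743 to 16259540, minus strand), the receptor of the C5a fragment, rested on 6 to 27 counts per sample. It measured 0.311, 0.265, 0.354, 0.108 and 0.383 CPM in Visudyne and 0.431, 0.425, 0.338, 0.257 and 0.143 CPM in vehicle samples, and the groups overlapped. The log2 fold change was -0.16 (SE 0.37), with 0.048 without Visudyne 12 and -0.34 without vehicle 13.

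**Figure D3:**
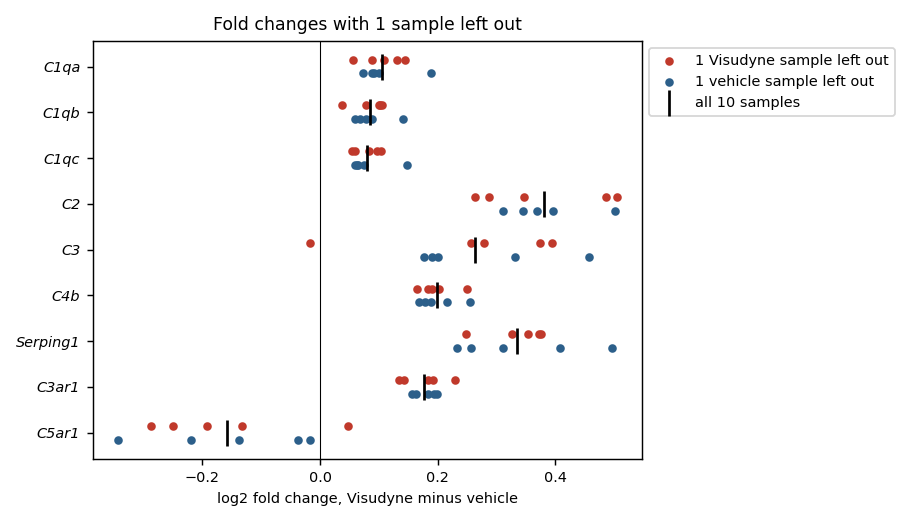
Log2 fold changes of the 9 genes with all 10 samples (black bar) and with 1 Visudyne (red) or 1 vehicle sample (blue) left out. The values of C3 and C5ar1 lie on both sides of 0 (-0.017 to 0.46 and -0.34 to 0.048), and those of the other 7 genes are all above 0.

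Of 48 other complement genes listed, 35 were tested, 11 fell under the count filter with at most 15 counts in any sample, and 2 (Mbl1 and C9) were not analysed here. With edgeR 0 of the 35 were called higher or lower, beside 0.021% and 0% of all genes. At an unadjusted p under 0.05 there were 0 in either direction, beside 1.14% and 0.56% of all genes. DESeq2 and limma voom called 0, beside 0.0564% and 0.021% of all genes called higher and 0.00752% and 0% called lower. The fold change was positive for 26 and negative for 9, with a median of 0.043, while 51.1% of all genes were positive. Those of smallest p included C6, Cr2, C8g and Itgb2.

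Among initiators of the classical and lectin routes, 6 of 13 were tested and 5 were positive (median 0.090). C1ra, the main C1r gene of the mouse, measured 2.12 ± 0.274 CPM in Visudyne and 2.12 ± 0.470 CPM in vehicle samples, and C1s1, which encodes C1s, 0.539 ± 0.145 in Visudyne and 0.506 ± 0.128 in vehicle samples. Of the 4 genes listed for amplification (C4a, Cfb, Cfd and Cfp) 3 were tested, 2 positive and 1 negative. Cfb, the counterpart of C2 in the alternative route, measured 2.70 ± 0.524 CPM in Visudyne and 2.83 ± 0.195 CPM in vehicle samples (log2 fold change -0.064, SE 0.14). Of the 7 genes of the membrane attack complex 5 were tested, and these with C8b, which fell under the count filter, summed to 2.07 to 3.07 CPM in Visudyne and 2.03 to 2.96 CPM in vehicle samples. Hc, the mouse gene of C5, measured 0.399 ± 0.274 CPM in Visudyne and 0.300 ± 0.132 CPM in vehicle samples. C6 had a log2 fold change of 0.56 (SE 0.27) and C8g, which also encodes a protein of this complex, -0.19 (SE 0.17).

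Of the inhibitors 16 of 18 were tested (11 positive, 5 negative, median 0.040). Clu, or clusterin, which binds terminal complement proteins, stood at 241 ± 13.1 CPM per kilobase in Visudyne and 234 ± 19.8 in vehicle samples (log2 fold change 0.040, SE 0.062). Sez6, a neuronal membrane protein with complement-control repeats, had 31.8 ± 1.2 CPM per kilobase in Visudyne and 31 ± 1.81 in vehicle samples, and Csmd1, another of that kind, 11.3 ± 1.57 in Visudyne and 11 ± 1.45 in vehicle samples. The membrane-bound inhibitors Cd46, Cd55 and Cd59a had log2 fold changes of 0.052 (SE 0.23), -0.013 (SE 0.079) and 0.043 (SE 0.18).

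Other receptors were 5 of 6 tested, 4 positive and 1 negative. Itgam, a chain of complement receptor CR3 on microglia, measured 15.7 ± 1.22 CPM in Visudyne and 15.5 ± 0.893 CPM in vehicle samples, and its partner chain Itgb2 3.39 ± 0.363 in Visudyne and 3.09 ± 0.482 in vehicle samples. C5ar2, another receptor of C5a, measured 0.974 ± 0.0586 CPM in Visudyne and 1.06 ± 0.0929 CPM in vehicle samples (log2 fold change -0.13, SE 0.14). Cr2, a receptor of C3 fragments known from B cells and follicular dendritic cells, had 0 counts in 5 of the 10 samples, spread over both groups, and 0.455 to 1.77 CPM in the others.

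**Figure D4:**
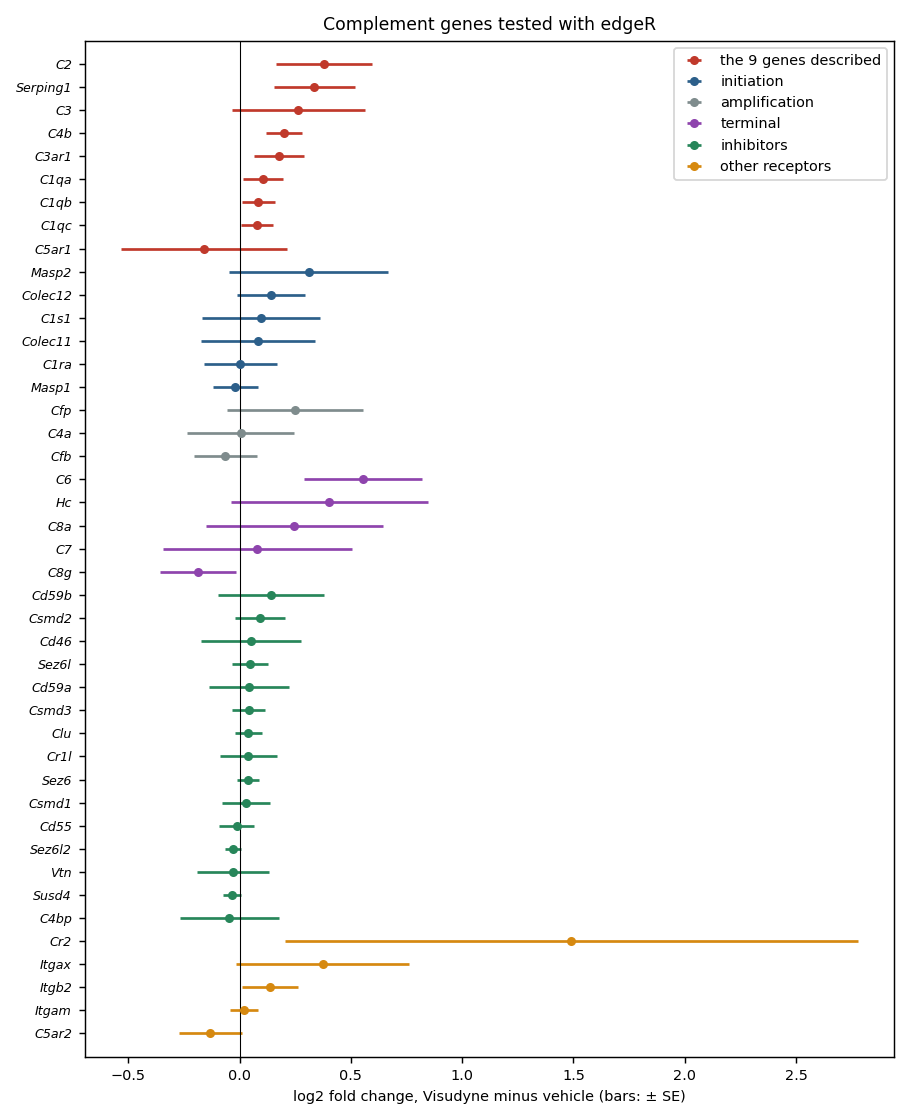
Log2 fold changes, Visudyne minus vehicle, with SE bars for the 9 genes described (red) and 34 of the 35 other complement genes tested, grouped by role. None of these passed the test, and Cr2, at 1.49 with an SE of 1.29, has 0 counts in 5 samples.

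To describe how the 9 genes varied between samples, for each gene the log2 CPM was set against the mean log2 CPM of markers of microglia, border macrophages, astrocytes, fibroblasts and choroid plexus over the 10 samples. Of 45 such relations 4 passed by Pearson's r in a permutation test after adjustment. These concerned Serping1, C1qa and C1qc. None of the 4 passed over the 8 samples left when the 2 farthest from the median marker level were omitted, although r then fell little for the C1q chains and more for Serping1.

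Serping1 followed fibroblast markers with r = 0.91 (permutation p = 0.00049, adjusted p = 0.016) and Spearman's rho = 0.66 (permutation p = 0.0431, adjusted p = 0.242). The r was 0.72 without vehicle 7 and 13, 0.58 within the 5 Visudyne and 0.95 within the 5 vehicle samples. It followed border macrophage markers with r = 0.86 (permutation p = 0.00071, adjusted p = 0.016) and rho = 0.89 (permutation p = 0.00107, adjusted p = 0.0347), and the r was 0.76 without vehicle 7 and 13. Of the 10 fibroblast markers all had positive fold changes, as had 51.1% of all genes. With edgeR 1 was called higher (Col1a1, log2 fold change 1.18), beside 0.021% of all genes. Of the 9 that did not pass, Col3a1 (1.36) and Col1a2 (0.78) had the highest log2 fold changes, and Lum (0.039), Dcn (0.18) and Slc6a13 (0.18) the lowest. At an unadjusted p under 0.05 in edgeR, 6 of the 10 were higher and 0 lower, beside 1.14% and 0.56% of all genes. The markers were chosen with earlier results of these data known, so these counts describe the list and are no independent test. The 10 summed to 131 to 167 CPM in Visudyne and 58.1 to 128 CPM in vehicle samples, with none at 0. Of the border macrophage markers 5 of 6 had positive and 1 negative fold changes, none was called, and they summed to 6.75 to 10.6 CPM in Visudyne and 6.05 to 10.2 CPM in vehicle samples, with none at 0. The part of these markers in the fold change of Serping1 was not tested.

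C1qc followed astrocyte markers with r = 0.86 (permutation p = 0.00126, adjusted p = 0.0189) and rho = 0.85 (permutation p = 0.00326, adjusted p = 0.0367). C1qa did so with r = 0.85 (permutation p = 0.00194, adjusted p = 0.0218) and rho = 0.88 (permutation p = 0.00154, adjusted p = 0.0347). Without Visudyne 12 and vehicle 13 these r were 0.82 and 0.83, with adjusted permutation p of 0.199 and 0.170. For C1qb the r was 0.76 (permutation p = 0.0117, adjusted p = 0.0749), and rho was 0.85 (permutation p = 0.00312, adjusted p = 0.0367). With microglia markers the r was 0.80 for C1qc (permutation p = 0.00632, adjusted p = 0.0569), 0.78 for C1qa (permutation p = 0.00903, adjusted p = 0.0677) and 0.65 for C1qb (permutation p = 0.0451, adjusted p = 0.203), with rho of 0.72, 0.73 and 0.62 (adjusted permutation p = 0.175, 0.175 and 0.276). Without vehicle 1 and 13 these 3 r were 0.65, 0.60 and 0.41. The astrocyte and microglia lists ordered the samples nearly alike. Vehicle 1 and Visudyne 12 were highest and Visudyne 15 and vehicle 13 lowest in each. The TMM factor was lowest in vehicle 1 (0.947) and Visudyne 12 (0.969) and highest in Visudyne 15 (1.07). However, vehicle 4 (0.980) had a lower astrocyte level (7.43) than Visudyne 9 (factor 1.02, level 7.53). Whether the C1q chains follow a cell type or a difference shared by whole libraries was not tested. The 10 microglia markers, none at 0, summed to 232 to 280 CPM in Visudyne and 229 to 278 CPM in vehicle samples. The 8 astrocyte markers, none at 0, summed to 4316 to 5131 CPM in Visudyne and 4427 to 5027 CPM in vehicle samples, so both lists had nearly the same range in both groups.

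C3 was highest in the samples with most choroid plexus RNA, with r = 0.75 (permutation p = 0.0154, adjusted p = 0.0867) and rho = 0.56 (permutation p = 0.0965, adjusted p = 0.310). Visudyne 12 and vehicle 7, which had both the highest C3 of their groups and the highest choroid plexus levels, carried it, for r was 0.33 without them. The 6 choroid plexus markers, none at 0, summed to 24.2 to 50.0 CPM in Visudyne and 26.7 to 215 CPM in vehicle samples, with Ttr at 15.4 ± 10.1 CPM in Visudyne and 43.7 ± 75.9 CPM in vehicle samples. Of the 5 tested (Kcne2 was not), 1 was positive and 4 negative, and none was called. Without both samples the log2 fold change of C3 was 0.17, and the part of choroid plexus RNA in it was not tested further. C2 had its highest r with border macrophage markers, 0.73 (permutation p = 0.0237, adjusted p = 0.118), and rho of 0.64 (permutation p = 0.0554, adjusted p = 0.276), and an r of 0.75 without vehicle 7 and 13. For C4b the highest r was 0.49, with fibroblast markers (permutation p = 0.155, adjusted p = 0.382), and rho was 0.53 (permutation p = 0.124, adjusted p = 0.328). As deviations from the group means this r was 0.068, with -0.58 within the 5 Visudyne and 0.30 within the 5 vehicle samples. The highest r of deviations for C4b was 0.53, with choroid plexus markers. Its plain r with these markers over the 10 samples was 0.35 (permutation p = 0.340, adjusted p = 0.637), and -0.14 without Visudyne 12 and vehicle 7. Of 6 monocyte and neutrophil markers only Ccr2 was tested, at 1.31 ± 0.263 CPM in Visudyne and 0.869 ± 0.228 CPM in vehicle samples (log2 fold change 0.60, SE 0.22, unadjusted p = 0.0176, edgeR adjusted p = 0.9999), with 4 Visudyne samples above all vehicle samples. The 6 summed to 1.21 to 2.32 CPM in Visudyne and 0.791 to 1.37 CPM in vehicle samples, and the part of such cells in the results was not tested.

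**Figure D5:**
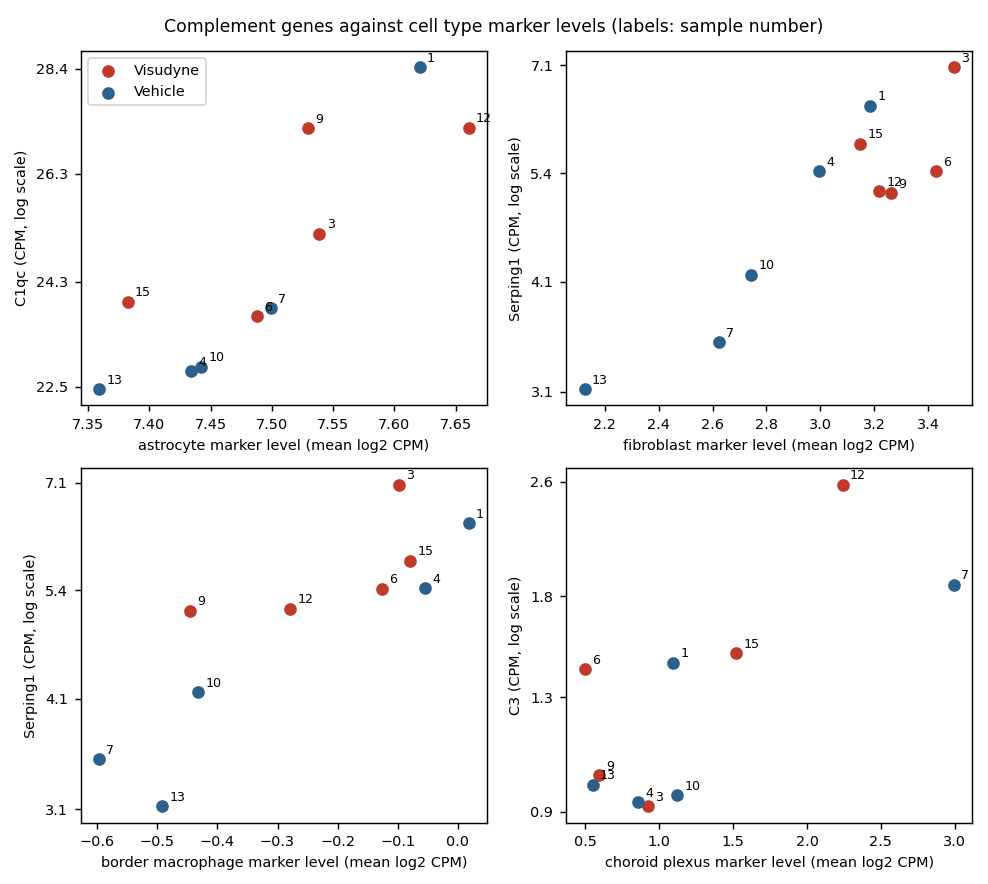
Each panel sets the CPM of a complement gene (log axis) against the mean log2 CPM of the markers of a cell type, with Visudyne samples in red, vehicle samples in blue and the sample numbers beside the points. Serping1 (r = 0.91 with fibroblast and 0.86 with border macrophage markers) and C1qc (r = 0.86 with astrocyte markers) follow the marker level over most samples, whereas C3 is set apart by Visudyne 12 and vehicle 7.

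The genes whose pattern over the 10 samples was most like each of the 9 were sought among 13318 other protein-coding genes of at least 1 CPM, by the correlation of deviations from the group means. For C1qa these were Aldoc (r = 0.97), Mdk (0.96) and 4933434E20Rik (0.96), for C1qb Mdk (0.97), Lyrm7 (0.96) and Hadha (0.93), and for C1qc Srek1ip1 (0.96), Clu (0.96) and Mdk (0.95). Mdk thus stood among the closest 3 of every C1q chain, and Aldoc is an astrocyte marker of the list used above. For Serping1 they were Asl (0.97), Crabp2 (0.97) and Mrc1 (0.97), the last a border macrophage marker of the list used above. For C2 they were Arrdc1 (0.95), Bnc2 (0.95) and Tbx3 (0.93), for C3 Gm3411 (0.94), Fam161b (0.92) and Kif6 (0.92), and for C4b mt-Co3 (0.91), D16Ertd472e (0.89) and Pgbd1 (0.87). For C3ar1 they were Abcc4 (0.90), 9430038I01Rik (0.90) and Gm21119 (0.89), and for C5ar1 Abcc3 (0.95), Gon7 (0.94) and Lrrc32 (0.90). These are the highest of many values, over 10 samples that share their scaling, and are given as a description. Among the 9 genes themselves, beside the C1q chains, deviations correlated most between C3ar1 and C5ar1 (0.78), C3 and C4b (0.67) and Serping1 and C5ar1 (0.62).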

How the data were processed

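Stranded libraries were made from total RNA, per the labels' protocols. The deposited values are estimated counts, given by the authors as whole numbers for 28871 Ensembl genes in 10 samples. Salmon, FastQC and the build mm10 are named in the submitters' processing notes, without versions, and the annotation and the summing by gene are not given here. Salmon divides reads that fit several transcripts by estimation, which makes values of overlapping or near-identical genes less certain.

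Names, positions and transcripts came from GENCODE M21 for the same assembly (28564 identifiers matched). Levels per kilobase use the longest principal transcript, or the longest where none is marked. Groups came from the sample titles. Groups were compared in edgeR 4.0.16 (R 4.3.3) by its quasi-likelihood method with the default count filter (19093 genes), TMM, no covariate and Benjamini-Hochberg adjustment over all genes. SEs were derived from the F statistics, and the biological coefficient of variation was 14.6%. On simulated data the procedure called 30.6% of genes changed 1.25-fold and 62% of those changed 1.5-fold. Of its calls there 7.35% were false. Small changes can therefore be missed. Exact permutation tests ran over all 252 assignments of 5 and 5 samples, with a smallest p of 0.0079. Correlations used log2 CPM with a prior count of 2 and 100000 permutations (numpy 2.4.6), adjusted over 45 relations. Precision depends on the counts, which range from 6 (C5ar1) to 3090 (C4b) per sample, and on the spread between samples. The SE did not follow the counts alone, at 0.11 for C3ar1 on 96 to 149 counts and 0.18 for Serping1 on 177 to 409.

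The alternatives comprised other normalizations and count filters, DESeq2 1.42.0, voom from limma 3.58.1, tables without mitochondrial genes, the sample number as a covariate, omission of samples and summed counts of overlapping genes. The 9 genes, the gene lists and the markers were chosen with earlier results of these data known. Named beside the 9 are the 5 other complement genes of smallest p, 15 fixed by name and the 3 closest genes to each. Mbl1 and C9 were not analysed here. The values of 1 other gene so chosen are not reported here.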

Additional observations from a re-analysis of the deposited data

Results flagged for a closer look

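Vehicle 1 stood apart from the other vehicle samples in 2 of the C1q chains. Its C1qa level of 29.9 CPM was followed by 24.0 CPM in the next vehicle sample, and its C1qc level of 28.4 CPM by 23.8 CPM. In both the gap was larger than Dixon's critical value allows for 5 samples (0.731 and 0.770 of the group's range, against 0.71). C1qb in vehicle 1 was also the highest of its group, at 23.2 CPM, without passing that limit. Of 24 groups of values looked at, chance flags about 1 in 20. The 2 flags are not independent, since C1qa and C1qc varied together (r = 0.96). Vehicle 1 also had the highest microglia marker level of the 10 samples (mean log2 CPM 4.15), with Visudyne 12 close at 4.13. Its border macrophage level was the highest as well (0.018), and its astrocyte level of 7.62 was below only that of Visudyne 12 (7.66). Its TMM factor was the lowest (0.947). Why vehicle 1 stood apart was not tested. Clu, which was not among the values looked at, stood at 486 CPM in vehicle 1 and 423 CPM in vehicle 7, the next of its group.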

How the results depend on the processing

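With 1 sample left out, the log2 fold change ranged from -0.017 to 0.46 for C3 and from -0.34 to 0.048 for C5ar1, both times with the end of other sign reached without Visudyne 12. C5ar1 was also positive once sample number entered as a covariate (0.013) and without vehicle 7 and Visudyne 12 together (0.069), an omission added after the data were examined. The cause was not tested. The other 177 of 181 values of the 9 genes, over 22 alternatives, kept their sign, and none of the 181 passed (adjusted p from 0.946 to 0.99999 with edgeR, DESeq2 or voom). The counts of genes called, among the 9 and among the 35 others, were 0 in each of the 20 alternatives that gave them. The fold changes spanned 0.056 to 0.23 for C1qa, 0.16 to 0.25 for C4b, 0.26 to 0.50 for C2 and 0.23 to 0.50 for Serping1. Summing C2 with Gm20547 was also added after the data were examined. Differences in C1q ratios and in the C4a share kept their sign in every omission. No paired analysis was made, because the labels name no pairs, although the sample numbers of the groups alternate. C5ar1 and C3, on 6 to 27 and 48 to 143 counts per sample, are the least precise of the 9.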
